A study of Caenorhabditis elegans with 10 samples.

Results

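The genes described here are protein-coding genes of Caenorhabditis elegans that were known in the deposited table only by a sequence name and were at least 4-fold lower in sorted ASH neurons than in the other sorted cells. There are 185 of them, out of 10593 sequence-named protein-coding genes and 46272 genes in all. A sequence name, such as C44B7.5, gives the genomic clone on which a gene model was predicted and a number on that clone, so it says nothing of what the gene does. The cells came from wild-type worms and were sorted by fluorescence. The 2 groups were ASH neurons carrying a YFP label, with 5 libraries, and a control of sorted cells that lacked YFP, also with 5 and named non-ASH in what follows. The worms grew on standard NGM plates with no treatment, and the labels leave the cell type of the control unspecified. Neither the promoter that drives the label nor the age of the worms is stated in the labels.

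The members were chosen by the FPKM values themselves (a level scaled for transcript length and library size, from Cuffdiff), with 1 value per group. Those values had to be at least 10 FPKM in non-ASH and, after 1 was added to both, at least 4 times higher in non-ASH than in ASH. That ASH is low is therefore how the set was made and is given as a description. All fold changes, p and q below come from the same 10 libraries and describe the set without testing it. There was no value per library, so no SD, no standard error, no n and no depth can be given, and no label states whether each library was a culture of its own.

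ASH is a pair of sensory neurons in the head that detects noxious stimuli. In the rest of the worm the pharynx, its gland cells, the epidermis, the intestine and the germ line each make abundant and specialised products. Pharyngeal glands secrete proteins into the feeding organ, and sperm are filled with major sperm proteins, which form the motile cytoskeleton of nematode sperm. In bulk samples such as these, fewer cells of a type and less RNA per cell cannot be told apart.

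The sort can be read from markers in the authors' deposited table. The 6 ASH markers summed to 246 FPKM in ASH against 9.91 FPKM in non-ASH there, and all 6 were higher by DESeq2, the count-based tool of the authors, at an adjusted p under 0.05. The 5 pharyngeal gland markers, phat-1 to phat-5, summed to 24.5 FPKM in ASH against 399 FPKM in non-ASH per the authors' deposited table, with 3 of 5 lower. For pharyngeal muscle the sums were 68.8 and 306 FPKM in ASH and non-ASH, with 4 of 5 lower, and for coelomocytes 9.04 and 85.3 FPKM in ASH and non-ASH, with 3 of 3 lower, in the authors' deposited table. Intestine markers ran the other way, with 5369 FPKM in ASH against 1257 FPKM in non-ASH and 2 of 5 higher per the authors' deposited table. Germ line markers stood at 580 and 690 FPKM in ASH and non-ASH, with 0 of 5 called in either direction, in the authors' deposited table. Body wall muscle markers summed to 1360 and 954 FPKM in ASH and non-ASH, with 1 of 5 higher, and epidermis markers to 797 and 723 FPKM in ASH and non-ASH, with 1 of 5 higher and 2 lower, in the authors' deposited table. Nearly all of the epidermis sums came from col-19, at 792 FPKM in ASH against 711 FPKM in non-ASH per the authors' deposited table. The 5 glia markers summed to 38.4 FPKM in ASH against 12.02 FPKM in non-ASH, of which the microRNA gene mir-228 alone was listed at 35.7 FPKM in ASH and at 0 in non-ASH per the authors' deposited table, and 2 of 4 tested were lower.

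In the authors' deposited table the 185 genes ranged from 0 to 740 FPKM in ASH, with a median of 3.31, and from 10.01 to 3618 FPKM in non-ASH, with a median of 27.9. Of these, 29 were below 1 FPKM in ASH and 45 were at 10 FPKM or more there. In non-ASH, 35 reached 100 FPKM, 8 reached 1000 and 72 lay under 20. On the scale of FPKM + 1, the scale of every fold below unless DESeq2 is named, 72 genes were less than 5-fold lower in ASH, 81 were between 5-fold and 10-fold lower and 32 were at least 10-fold lower. They made up 5.51% of the 3359 sequence-named genes at the non-ASH floor of 10 FPKM. Among the 4040 protein-coding genes at that floor that had a gene name, 141 were at least 4-fold lower in ASH, or 3.49%.

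**Figure D1:**
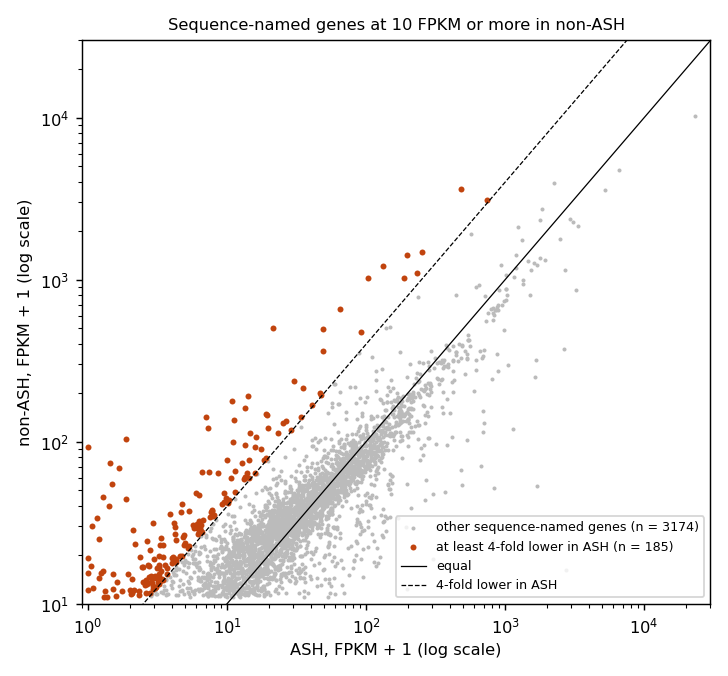
Each point is 1 sequence-named protein-coding gene at 10 FPKM or more in non-ASH, with FPKM + 1 in ASH on the horizontal and in non-ASH on the vertical axis, both logarithmic. The 185 genes at or above the dashed 4-fold line stand to the left of the main cloud of 3174 other genes and reach 3618 FPKM in non-ASH.

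The authors ran a pair of tools on the libraries, DESeq2 on read counts and Cuffdiff on FPKM, and a call here is an adjusted p or q under 0.05. In the authors' deposited table DESeq2 had an adjusted p for 172 of the 185 genes and called 126 of them lower and 0 higher, where 4.44% of all 16802 tested genes were called lower. The rule used the same contrast, so nothing is read from this share. Cuffdiff called 115 of the 185 lower, where 2.72% of all 22317 genes listed above 0 in either group were called lower. Both tools called 96, where both called 2.24% of the 16802 genes. DESeq2 alone called 30, Cuffdiff alone 19 and neither tool 40, among them genes without a DESeq2 adjusted p. The median DESeq2 log2 fold change was -2.23 over the 184 genes that had one, against -0.09 over all tested genes and 0.01 over the other sequence-named genes at the floor. Both tools called 27 of the 35 genes at 100 FPKM or more in non-ASH, 41 of the 78 from 20 up to 100 FPKM and 28 of the 72 under 20 FPKM. The share of all genes called at each level was not worked out, so nothing about the set is read from this order.

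**Figure D2:**
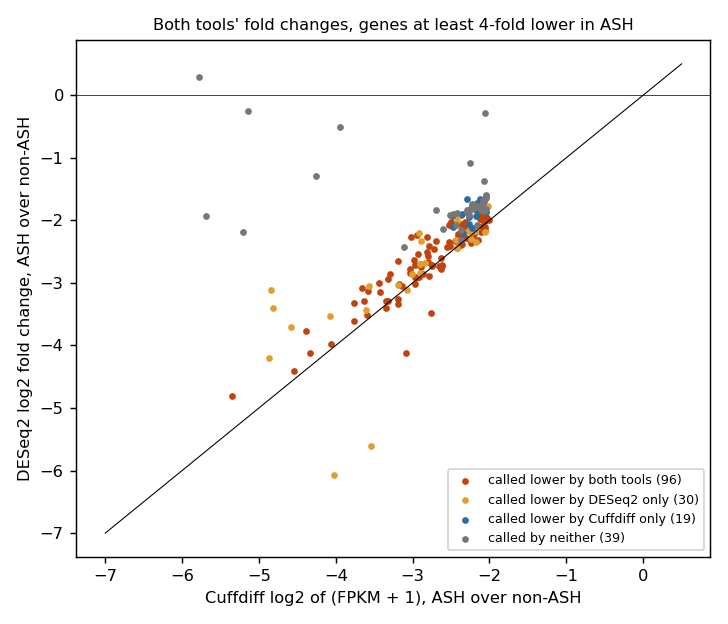
Each point is 1 of the 184 genes with a DESeq2 fold change, with Cuffdiff's log2 of FPKM + 1 on the horizontal and DESeq2's log2 fold change on the vertical axis, both ASH over non-ASH, coloured by the calls; the diagonal marks equal values. Most points lie on or a little above the diagonal, and 4 genes that neither tool called lie above -1 on the DESeq2 axis.

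Several of the most abundant of these transcripts in non-ASH have no known product in the deposited annotation. C44B7.5 led with 483 FPKM in ASH against 3618 FPKM in non-ASH, a DESeq2 log2 fold change of -2.70 (adjusted p = 0.00287) per the authors' deposited table. Cuffdiff did not call that difference (q = 0.580 in the authors' deposited table). B0513.4 followed with 740 FPKM in ASH against 3093 FPKM in non-ASH and a DESeq2 log2 fold change of -1.94 (adjusted p = 0.0199) per the authors' deposited table. It is the gene of the set with the highest level in ASH. C39D10.7 had 132 FPKM in ASH against 1210 FPKM in non-ASH, and C54D10.3 had 102 FPKM in ASH against 1028 FPKM in non-ASH. Their DESeq2 log2 fold changes were -3.04 (adjusted p = 2.62e-05) for C39D10.7 and -3.29 (adjusted p = 1.91e-06) for C54D10.3 per the authors' deposited table. Cuffdiff called C54D10.3 (q = 0.00101) and not C39D10.7 (q = 0.275) there. The coding sequence of C39D10.7 is the longest of the set at 1171 amino acids. T20G5.8, of 60 amino acids, was the lowest of the leading 10 genes in ASH, at 20.4 FPKM in ASH against 499.6 FPKM in non-ASH, a 23.4-fold difference per the authors' deposited table. The 5 most abundant genes together held 44.8% of the summed non-ASH FPKM of the set.

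The other leading genes have since been given names in the current symbol table. F48E3.4, now try-14 and so classed with the trypsin-like proteases, had 250.2 FPKM in ASH against 1474 FPKM in non-ASH per the authors' deposited table. F41C3.5, now ctsa-1.1, described as a serine carboxypeptidase, an enzyme that trims proteins from their carboxyl end, had 232 FPKM in ASH against 1102 FPKM in non-ASH there. Both were called lower by DESeq2 (adjusted p = 0.00281 and 0.00184), while Cuffdiff called try-14 (q = 0.0464) and not ctsa-1.1 (q = 0.0851) per the authors' deposited table. The related gene ctsa-1.2 stood at 49.0 FPKM in ASH against 40.9 FPKM in non-ASH, a DESeq2 log2 fold change of 0.01 per the authors' deposited table.

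**Figure D3:**
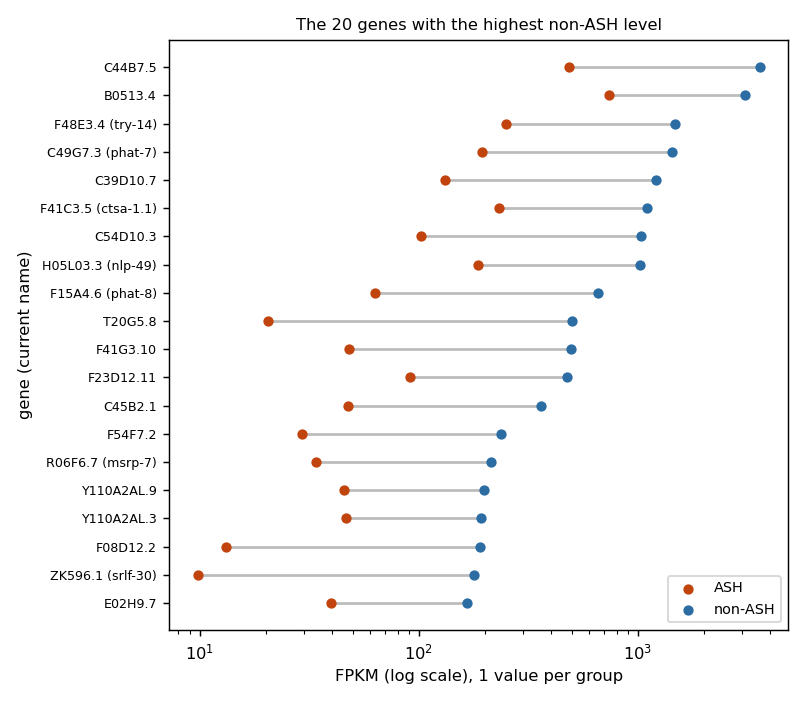
FPKM in ASH (orange) and non-ASH (blue) on a logarithmic axis for the 20 genes of the set with the highest non-ASH level, 1 value per group and gene. Among the first 10 genes the gap is widest for T20G5.8 (23.4-fold) and narrowest for B0513.4 (4.18-fold).

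Genes now named phat, after the pharyngeal gland, were among the abundant genes. C49G7.3, now phat-7, had 194 FPKM in ASH against 1424 FPKM in non-ASH, and F15A4.6, now phat-8, had 63.4 FPKM in ASH against 656 FPKM in non-ASH per the authors' deposited table. The phat genes encode pharyngeal gland proteins related to toxins. DESeq2 log2 fold changes were -2.85 (adjusted p = 8.23e-06) for phat-7 and -3.29 (adjusted p = 2.71e-06) for phat-8 per the authors' deposited table, and Cuffdiff called both at the smallest q it gave (0.00101). These are the highest non-ASH levels of the family. Of 8 phat genes in the table, 6 reached the floor of 10 FPKM in non-ASH, and all 6 were at least 4-fold lower in ASH and called lower by both tools, with folds of 4.97 to 21.6. Of these 6, phat-2, phat-3 and phat-4 are also the 3 gland markers called lower above, so the marker list and the family are not separate readings. The remaining phat genes, phat-1 and phat-5, were listed at 1.25 and 1.80 FPKM in ASH against 0.517 and 0.978 FPKM in non-ASH per the authors' deposited table. The families and product groups described here and below were picked after the values were seen, so their counts describe these libraries and support no claim about the families.

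Genes now named msrp were nearly all in the set, with 6 of the 7 in the table. R06F6.7 (msrp-7) had 33.9 FPKM in ASH against 215 FPKM in non-ASH, and ZK484.5 (msrp-2) had 27.7 FPKM in ASH against 118 FPKM in non-ASH per the authors' deposited table. F32B5.4 (msrp-1), D2062.6 (msrp-6), D2062.7 (msrp-5) and F46F5.6 (msrp-3) stood in the authors' deposited table between 1.49 and 3.24 FPKM in ASH and between 12.5 and 28.8 FPKM in non-ASH. All 6 encode short proteins of 90 to 134 amino acids. DESeq2 called 4 of the 6 lower and Cuffdiff 5 per the authors' deposited table. Those that DESeq2 did not call had log2 fold changes of -1.86 (msrp-2, adjusted p = 0.0588) and -2.08 (msrp-3, adjusted p = 0.0691) per the authors' deposited table. The genes D2062.6 and D2062.7 lie next to each other on chromosome II and on the same strand.

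The srlf genes at the floor had values in both directions. Of 36 in the table, 8 reached the non-ASH floor, and 5 of these were at least 4-fold lower in ASH, 4 of them sequence-named. ZK596.1 (srlf-30) had 9.78 FPKM in ASH against 178 FPKM in non-ASH with a DESeq2 log2 fold change of -3.97 (adjusted p = 3.36e-10) per the authors' deposited table. C28C12.4 (srlf-3) had 0.247 FPKM in ASH against 14.5 FPKM in non-ASH, ZK822.4 (srlf-32) had 5.66 FPKM in ASH against 32.0 FPKM in non-ASH, and Y67A10A.10 (srlf-28) had 5.64 FPKM in ASH against 26.7 FPKM in non-ASH per the authors' deposited table. Both tools called all 4 lower. In contrast C42D4.1 (srlf-7) stood at 278 FPKM in ASH against 143 FPKM in non-ASH, a DESeq2 log2 fold change of 1.03 (adjusted p = 0.0519) per the authors' deposited table. Of the 16 idpp genes in the table, the only ones that reached the floor were ZC21.3 (idpp-15), with 1.098 FPKM in ASH against 27.4 FPKM in non-ASH, and F35B12.3 (idpp-16), with 8.14 FPKM in ASH against 40.4 FPKM in non-ASH. Both are in the set and were called lower by DESeq2 in the authors' deposited table. Cuffdiff called idpp-15 (q = 0.00101) and not idpp-16 (q = 0.135) there.

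A group of sequence-named genes carries the product name of a sperm component. The 5 genes described as a major sperm protein were F53B6.4, F21H7.5, Y59E9AR.7, C15H11.1 and T22B3.3, at 1.92 to 6.98 FPKM in ASH and 12.3 to 34.3 FPKM in non-ASH in the table that the authors deposited. They were between 4.13-fold and 4.99-fold lower in ASH. DESeq2 called F53B6.4 (log2 fold change -1.88, adjusted p = 0.0238) and Y59E9AR.7 (-2.03, adjusted p = 0.0472) lower and did not call F21H7.5 (-1.81, adjusted p = 0.0733), C15H11.1 (-1.78, adjusted p = 0.0921) or T22B3.3 (-1.59, adjusted p = 0.240) per the authors' deposited table. Of 82 genes with that product name, 33 reached the non-ASH floor, most of them named msp. Over these 33, 28 were at least 4-fold lower in ASH, the median fold was 4.88, and DESeq2 called 19 lower per the authors' deposited table. The msp genes are near-identical copies that may share reads, and the treatment of such reads in the authors' counting is not given, which leaves single copies uncertain. The smallest fold among the 33 genes at the floor, 1.05, was that of vpr-1, which encodes a major sperm protein domain. Its levels were 134 FPKM in ASH against 142 FPKM in non-ASH per the authors' deposited table. The ASH marker osm-10 carries the same product name but lay below the floor, at 142 FPKM in ASH against 1.12 FPKM in non-ASH. DESeq2 called osm-10 higher (log2 fold change 5.34, adjusted p = 1.77e-11) per the authors' deposited table. The 5 general germ line markers named above had DESeq2 log2 fold changes from -0.63 (glh-1) to 0.34 (sygl-1), and none was called in the authors' deposited table. Their part in the sperm values was not tested.

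The 2 phosphatase genes of the set, ZK938.1 and F52H3.6, are described as serine/threonine-protein phosphatases, enzymes that remove phosphate from proteins. ZK938.1 had 4.74 FPKM in ASH against 28.5 FPKM in non-ASH, and F52H3.6 had 2.25 FPKM in ASH against 13.6 FPKM in non-ASH per the authors' deposited table. Cuffdiff called both (q = 0.0128 and 0.0200) and DESeq2 neither (adjusted p = 0.0668 and 0.0637) per the authors' deposited table. Of the 15 genes with this product name at the floor, these were the only ones at least 4-fold lower, and the median fold was 0.978. Next in order stood gsp-4 and gsp-3, which encode phosphatases of sperm, at 5.01 and 6.95 FPKM in ASH against 21.7 and 24.2 FPKM in non-ASH per the authors' deposited table. The nsph genes nsph-3.2 (C04G2.9), nsph-3.1 (Y69E1A.2) and nsph-2 (ZK265.3) had 12.4, 6.48 and 2.70 FPKM in ASH against 59.3, 33.3 and 15.6 FPKM in non-ASH per the authors' deposited table. Cuffdiff called all 3 lower and DESeq2 none (adjusted p = 0.0543, 0.0893 and 0.0905). The fourth nsph gene at the floor, nsph-1.2, was at 14.5 FPKM in ASH against 11.28 FPKM in non-ASH per the authors' deposited table. Y59E9AL.6 (cylc-1), which takes its name from cylicin, a protein of the mammalian sperm head, had 3.74 FPKM in ASH against 18.6 FPKM in non-ASH per the authors' deposited table and was called by neither tool.

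**Figure D4:**
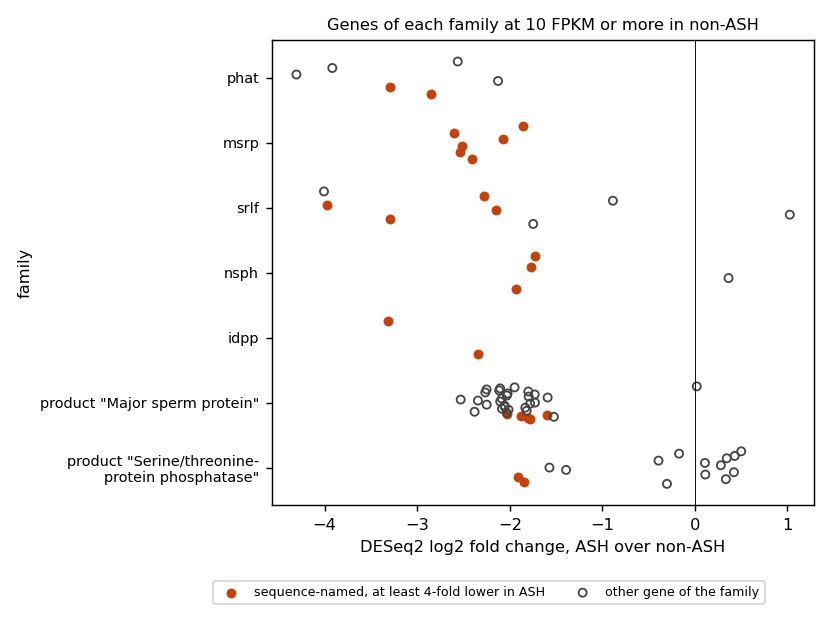
DESeq2 log2 fold change, ASH over non-ASH, of every gene at 10 FPKM or more in non-ASH in 5 families by current name and 2 groups by product name; filled points are sequence-named genes of the set and open points other genes. All 6 phat and all 6 msrp genes lie below -1.8, and the major sperm protein group lies near -2 with vpr-1 at 0.02.

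Peptide signals of neurons were also present. H05L03.3, now the neuropeptide gene nlp-49, had 187 FPKM in ASH against 1020 FPKM in non-ASH, a DESeq2 log2 fold change of -2.33 (adjusted p = 0.00153) per the authors' deposited table. Its deposited description relates it to corticotrophin releasing factor, a vertebrate stress peptide. Of 47 nlp genes at the non-ASH floor, 2 were at least 4-fold lower in ASH, and the median fold was 0.808. Y75B8A.11, now lury-1, encodes luqin-type peptides that pharyngeal neurons release to control feeding. Its values were 22.4 FPKM in ASH against 112 FPKM in non-ASH, and Cuffdiff called it (q = 0.0142) while DESeq2 did not (log2 fold change -2.06, adjusted p = 0.0683) per the authors' deposited table. B0563.6, described as a probable G-protein coupled receptor, had 2.08 FPKM in ASH against 11.7 FPKM in non-ASH and was called lower by both tools (DESeq2 adjusted p = 0.0125) per the authors' deposited table.

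Enzymes made up a small part. T01D1.4, a homologue of the dioxygenase of methionine salvage, had 18.4 FPKM in ASH against 144 FPKM in non-ASH with a DESeq2 log2 fold change of -2.71 (adjusted p = 0.000846) per the authors' deposited table. C07E3.9, a phospholipase A(2), which cleaves membrane lipids, had 24.1 FPKM in ASH against 130.1 FPKM in non-ASH with -2.27 (adjusted p = 0.00635) per the authors' deposited table. The other phospholipase A genes at the floor ran the other way in level, with Y69A2AL.2 at 78.9 FPKM in ASH against 15.7 FPKM in non-ASH and Y52B11A.8 at 154 FPKM in ASH against 87.8 FPKM in non-ASH per the authors' deposited table. DESeq2 called neither of these (adjusted p = 0.0664 and 0.1152), and Cuffdiff called Y69A2AL.2 higher (q = 0.00186). C05D11.5, a putative hydroxypyruvate isomerase, had 5.12 FPKM in ASH against 29.99 FPKM in non-ASH per the authors' deposited table. R02D3.1 (aass-1), whose mammalian counterpart starts lysine breakdown, had 9.25 FPKM in ASH against 42.4 FPKM in non-ASH, and F49E2.1 (moc-5), for the molybdenum cofactor, had 2.40 FPKM in ASH against 13.1 FPKM in non-ASH per the authors' deposited table. Both tools called C05D11.5, aass-1 and moc-5 lower. ZK669.3, related to GILT, a lysosomal thiol reductase, had 12.4 FPKM in ASH against 94.5 FPKM in non-ASH, with DESeq2 calling it (adjusted p = 0.000428) and Cuffdiff not (q = 0.289) per the authors' deposited table. F56B3.6, described as a receptor expression-enhancing protein, a kind that shapes the endoplasmic reticulum, had 1.84 FPKM in ASH against 12.5 FPKM in non-ASH per the authors' deposited table and was called by neither tool.

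T24B8.5, now sysm-1, is known as a gene of the p38 immune response, and it had 0.159 FPKM in ASH against 32.9 FPKM in non-ASH per the authors' deposited table. C45E5.4, now cpg-18 and so placed among the chondroitin proteoglycans, had 0.0408 FPKM in ASH against 16.0 FPKM in non-ASH and the lowest DESeq2 log2 fold change of the set, -6.07 (adjusted p = 3.59e-08) per the authors' deposited table. The other 7 cpg genes at the floor had folds of at most 1.05. DESeq2 called both sysm-1 and cpg-18 lower, and Cuffdiff called neither (q = 0.372 and 0.552) per the authors' deposited table.

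The description column gave little on the rest. Of the 185 genes, 158 (85.4%) were described only as a hypothetical protein, against 82.6% of the 3174 other sequence-named genes at the floor, and 9 had no description. A product name stood for 18 (9.73%), against 15.7% of the other genes. The pharynx was named in 0 of the 185 descriptions and in 1 of the other 3174, and glia in 0 of either. The column gives product names and no tissues, so these counts carry no information on tissue, and phat-7 and phat-8 are themselves described only as hypothetical proteins. The signalling class, by keyword, held 4 genes of the set and the enzyme class 4, or 2.16% each, against 1.32% and 3.88% of the other genes at the floor. The signalling class includes F56B3.6, matched only by the word receptor in its product name. The protease class held 1 gene of the set, ctsa-1.1 (0.541%), against 0.378% of the other genes. The cuticle, extracellular, transport, transcription, cytoskeleton and RNA classes held 0 genes of the set and few of the others, with 0%, 0.0630%, 0.347%, 0.567%, 0.0630% and 0.914% of the other genes in that order. With shares this low, nothing is read from the zeros.

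Of the genes with the largest folds, few were called by both tools. By the ratio of FPKM + 1, the 10 largest belonged to C08H9.18, B0250.18, M199.9, F41G3.21, F14F8.8, Y66H1A.8, sysm-1, Y48G8AL.12, F09B12.7 and K09C6.9, from 93.0-fold to 23.9-fold. Of these 10, Cuffdiff called 1, F41G3.21, with 0.675 FPKM in ASH against 67.5 FPKM in non-ASH (q = 0.00101), and DESeq2 gave it -4.81 (adjusted p = 7.58e-07) per the authors' deposited table. DESeq2 also called sysm-1, Y48G8AL.12 (log2 fold change -3.12, adjusted p = 0.0248), F09B12.7 (-3.40, adjusted p = 0.00991) and K09C6.9 (-3.71, adjusted p = 0.00636) per the authors' deposited table. Cuffdiff did not call the remaining 5. Of these, C08H9.18, B0250.18, M199.9 (log2 fold change -1.93) and F14F8.8 (-2.19) had no DESeq2 adjusted p. DESeq2 did not call Y66H1A.8 (adjusted p = 0.873) per the authors' deposited table.

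In 5 genes of the set DESeq2 gave a log2 fold change above -1 or none, whatever the FPKM ratio. B0250.18 had 0.888 FPKM in ASH against 103 FPKM in non-ASH and a DESeq2 log2 fold change of 0.29 (unadjusted p = 0.785) per the authors' deposited table. Y66H1A.8 had 0.288 FPKM in ASH against 44.3 FPKM in non-ASH and -0.25 (DESeq2 adjusted p = 0.873) per the authors' deposited table. Y69A2AR.24 was listed at 0 in ASH and at 14.4 FPKM in non-ASH with -0.51, and F13E9.19 at 1.79 FPKM in ASH against 10.6 FPKM in non-ASH with -0.29, neither with an adjusted p per the authors' deposited table. In the authors' deposited table C08H9.18 was listed at 0 in ASH and 92.0 FPKM in non-ASH and had no DESeq2 fold change. Their coding sequences have 24 to 56 amino acids, and Cuffdiff called 0 of the 5. B0250.18 overlaps a pseudogene in the Ensembl annotation, and the other 4 overlap no annotated gene.

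Coding length was not used by the rule, although FPKM itself is a level per length. The longest coding isoform had a median of 172 amino acids in the set (quartiles 113 and 289), against 289 amino acids (quartiles 162 and 455) in the 3152 other sequence-named genes at the floor that the annotation holds. Some of the other genes, such as C14B1.7, had a listed coding length of 0, and these count as under 100 amino acids. A coding length under 100 amino acids was listed for 37 of the 185 genes (20%), against 11.2% of the other genes. This direction did not hold throughout: at 100 FPKM or more in non-ASH the shares were 20% in the set and 23.6% in the other genes. Single-exon genes made up 8.11% of the set (15 genes), against 2.35% of the other genes. Among them were msrp-1, msrp-2, msrp-3, msrp-5 and msrp-6 and the major sperm protein genes Y59E9AR.7 and T22B3.3. At 100 FPKM or more in non-ASH the single-exon shares were 5.71% (2 genes) in the set and 4.52% in the other genes. The share was 5.14% among sequence-named genes at least 4-fold higher in ASH, and 25.5% among genes with a gene name at least 4-fold lower. The difference in length was smaller among abundant genes. From 10 up to 20 FPKM in non-ASH the medians were 171 amino acids in the set and 310.5 in the other genes, and at 100 FPKM or more 143 and 175.5. Among the sequence-named genes at least 4-fold higher in ASH, chosen in the same way in the other direction, the median was 157 amino acids and 29.4% were under 100. Those values include Y41C4A.17, listed at a length of 0. Genes of this higher set that also reach the non-ASH floor, such as B0035.13, count among the other genes as well. Within the set, the median was 191.5 amino acids over the 96 genes called by both tools and 100 over the 40 called by neither. Proteins under 100 amino acids made up 9.38% of the genes called by both tools, below the 11.2% of the other genes at the floor, and 47.5% of those called by neither. DESeq2 gave no adjusted p for 13 genes of the set, with a median of 73 amino acids and 9 of them under 100. Cuffdiff called 1 of these 13, and the rest count among those called by neither. The part of gene length in the fold was not tested.

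**Figure D5:**
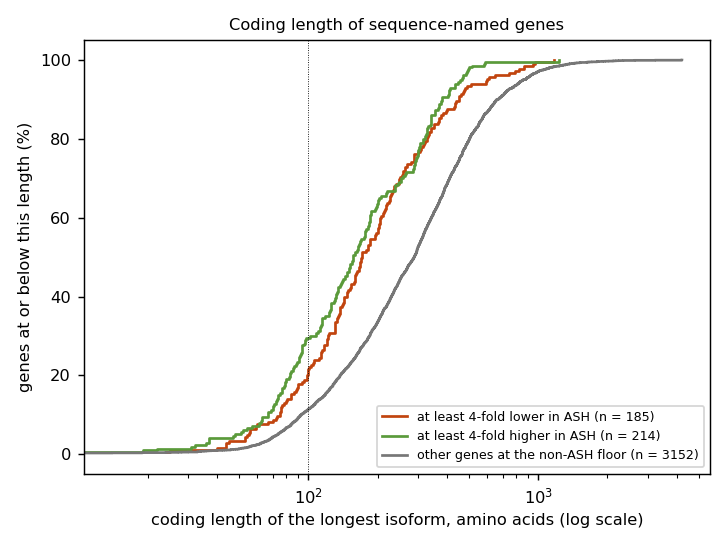
Cumulative share of genes, in percent, by coding length of the longest isoform in amino acids on a logarithmic axis, for the genes at least 4-fold lower in ASH, those at least 4-fold higher and the other sequence-named genes at the non-ASH floor. Genes of the higher set that reach the non-ASH floor also count among the other genes. The lower set, with a median of 172 amino acids, and the higher set, with 157, both run to the left of the other genes, with 289.

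Some of these genes are neighbours. In the order of annotated protein-coding genes, 18 of the 185 (9.73%) lie directly next to another gene of the set, in 9 pairs, against 1.46% of the other sequence-named genes at the floor that lie next to one. The share in the set depended on the fold limit and the pseudocount: it was 0% among the 47 genes at least 8-fold lower and 5.97% among the 67 chosen with a pseudocount of 5. Within 5 positions on either side the shares were 21.6% and 8.46%. Genes at least 4-fold higher in ASH lay next to one another in 15.02% of cases. Of the 9 pairs, 6 lie on 1 strand.

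The pair Y73F4A.1 and Y73F4A.2 on chromosome IV holds the only genes of the table described by a DOMON domain, a domain of secreted and membrane proteins that can bind haem or sugars. Y73F4A.1 had 12.4 FPKM in ASH against 160.4 FPKM in non-ASH, and Y73F4A.2 had 15.03 FPKM in ASH against 107 FPKM in non-ASH per the authors' deposited table. Both tools called both genes lower, and DESeq2 put Y73F4A.1 at -3.52 (adjusted p = 5.69e-08) and Y73F4A.2 at -2.72 (adjusted p = 0.00214) per the authors' deposited table.

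On chromosome II, F08D12.2 and F08D12.3 had 13.1 and 25.4 FPKM in ASH against 191 and 134 FPKM in non-ASH per the authors' deposited table. Y110A2AL.3 and Y110A2AL.9, on opposite strands, had nearly equal levels, with 46.5 and 45.3 FPKM in ASH against 193 and 198 FPKM in non-ASH per the authors' deposited table. Both tools called all 4 of these genes lower. The neighbour of phat-8, F15A4.5, had 2.02 FPKM in ASH against 11.6 FPKM in non-ASH, far below phat-8 in level, and was called lower by both tools in the authors' deposited table. K02E11.3 and K02E11.4 on chromosome V had 0.317 and 1.43 FPKM in ASH against 10.9 and 15.9 FPKM in non-ASH per the authors' deposited table, and R10E4.6 and R10E4.7 on chromosome III had 5.32 and 2.22 FPKM in ASH against 31.6 and 15.9 FPKM in non-ASH. Each R10E4 gene overlaps a protein-coding gene on the same strand in the annotation, so its reads may be shared. Which gene each overlaps was not recorded. Both tools called R10E4.7 lower, while R10E4.6 had no DESeq2 adjusted p and was not called by Cuffdiff (q = 0.0724) per the authors' deposited table. C33F10.1 and C33F10.11 had 9.58 and 4.01 FPKM in ASH against 59.0 and 22.8 FPKM in non-ASH per the authors' deposited table. Both tools called C33F10.1 lower (DESeq2 adjusted p = 0.0440), and neither called C33F10.11 (DESeq2 adjusted p = 0.115, Cuffdiff q = 0.0591) there. The last pair joins srlf-30 with F13E9.19, one of the 5 genes with a DESeq2 value above -1 or none. On the clone C39D10 of chromosome X there were 3 genes of the set that are not directly adjacent, C39D10.7, C39D10.8 (12.9 FPKM in ASH, 62.9 FPKM in non-ASH) and C39D10.6, now latd-1 (1.66 FPKM in ASH, 23.3 FPKM in non-ASH), all called lower by DESeq2 in the authors' deposited table. Cuffdiff called C39D10.8 and latd-1 lower there and did not call C39D10.7.

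Overlap with another protein-coding gene on either strand was annotated for 45 of the 185 genes (24.3%), against 31.1% of the other genes, and on the same strand for 10 (5.41%), against 5.93%. The libraries were strand-specific per the labels, but no label states whether the counting used strand. By chromosome, the set held 7.96% of the sequence-named genes at the floor on X, 6.73% on IV, 6.61% on V, 5.79% on II, 4.07% on I and 3.35% on III.

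At the edges of the rule, T19C3.5 (4.02-fold), F36D1.7 (now spex-2, 4.05-fold) and Y110A2AL.3 (4.08-fold) lay just inside the fold limit. F16B3.2 (3.99-fold), B0025.5 (3.99-fold) and C17G1.2 (3.98-fold) lay just outside. C17G1.2 had 87.2 FPKM in ASH against 349.8 FPKM in non-ASH per the authors' deposited table. At the floor of 10 FPKM in non-ASH, C37C3.12 (10.01 FPKM), C16D9.1 (10.03 FPKM) and F52E1.2 (10.2 FPKM) were inside, and T12B3.2 (9.94 FPKM), Y44A6D.1 (9.94 FPKM) and C01G10.4 (9.92 FPKM) were outside per the authors' deposited table.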

How the data were processed

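Poly(A)-selected, strand-specific libraries were made from sorted cells, per the labels' protocols. Groups came from the sample titles. The submitters' processing notes name TopHat2 2.0.13, Bowtie2 2.2.1, HTSeq, DESeq2, Cufflinks and Cuffdiff. The build, the annotation and the settings are not given in the sources used here, and no coordinates are printed. The authors' deposited table holds 1 signal per group, FPKM with 1 added (its minimum is 1), and 1 was subtracted for each FPKM printed. The log2 fold changes, p-values and q-values are those the authors deposited; Cuffdiff's log2 values hold the added 1. The adjusted p is the one the authors deposited from DESeq2. No library-level test could be run.

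Of 46273 rows, 1 repeat was dropped. Gene descriptions are those of the deposited table, and current names come from a symbol table that matched 43253 identifiers (93.5%). Coding length, exons, strand, overlap and gene order come from Ensembl release 115, assembly WBcel235, matched by identifier for all 185 genes; chromosomes differed for 0 of 19584 genes with both. The rule leaves out 1 gene, not reported here. The planned protein-sequence comparison was not run, as no protein table was used here. Tools were Python 3.11.15, pandas 2.3.3 and NumPy 2.4.6. The rule and the neighbour search were tested on simulated data.

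Named genes are the 10 highest in non-ASH, the 10 largest folds, 3 on each side of each limit, the 3 highest of each keyword class with at least 3 genes, genes that the authors' DESeq2 values go against (up to 5, at a positive fold change or an adjusted p of at least 0.5) and 5 adjacent pairs; the rule gave 46 genes, and further genes were chosen after their values were seen. The members and lists were chosen with earlier results of these data known. Alternatives were other folds, floors, pseudocounts, thresholds and names.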

Additional observations from a re-analysis of the deposited data

How the results depend on the processing

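No paired analysis was possible because the table holds 1 value per group, and for the same reason no library could be left out. The set of 185 genes became 47 at 8-fold, 113 at a floor of 20 FPKM, 67 with a pseudocount of 5 and, chosen after seeing the data, 96 with a call by both tools; it was 274 at 3-fold. With a DESeq2 log2 fold change of -2 or lower in place of the FPKM ratio it was 127, of which 5 are not among the 185. DESeq2 calls were 39 at 8-fold and 59 with a pseudocount of 5, and Cuffdiff calls 27 and 46. The median DESeq2 log2 fold change was -1.95 at 3-fold, -3.14 at 8-fold, -2.07 without a pseudocount, -2.71 with a pseudocount of 5 and -2.46 under the DESeq2 limit, all of the same sign. The median coding length was 137 amino acids at 8-fold, and the share of genes next to another of the set was 0% there, with 47 genes left; under the other alternatives both kept within their 95% limits (binomial, counting error only). At a threshold of 0.01 DESeq2 called 93 and Cuffdiff 85 of the 185 genes. The share of all genes called at that threshold was not counted, and nothing is read from the call counts of this section. A signal-peptide comparison was planned and not run. Depth and the spread between libraries are unknown.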
